A study of Homo sapiens with 8 samples.

Results

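The SLC39 genes encode the ZIP proteins, membrane transporters that carry zinc into the cytosol. In LNCaP cells, SLC39A10 stood apart from the 9 other SLC39 genes examined: its transcript level was 2.42-fold lower after 12 h with asporin (ASPN) and 2.84-fold lower after 24 h. The other 9 genes differed from 0 h by at most 1.41-fold. SLC39A7 and SLC39A14 fell by smaller amounts at both times, and SLC39A4 was higher at both. The set comprised SLC39A1, SLC39A3, SLC39A4, SLC39A6, SLC39A7, SLC39A8, SLC39A9, SLC39A10, SLC39A13 and SLC39A14, found by gene name, which is 10 of the 14 SLC39 genes and 10 of the 36474 genes counted. All 10 passed the filter on low counts, as did 21071 genes in all. The set was put together with earlier results of these data in view, among them the fall of SLC39A10, which was chosen by its log2 change at 24 h, so the values of SLC39A10 are given as a description without a p value. Which values chose the other 9 is not recorded. Of the 4 family genes not in the set, SLC39A2, SLC39A5 and SLC39A12 had 0 to 11 counts per library, whereas SLC39A11 had 1922 to 2774, more than SLC39A1 with 109 to 202.

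LNCaP is an established line from a human metastatic prostate carcinoma. The cells were kept for 6 to 12 h in medium lacking serum and calcium and then received 100 ng/mL of recombinant human ASPN, which is a protein of the extracellular matrix. Poly(A) RNA was sequenced at 0 h (2 libraries), 12 h (3 libraries) and 24 h (3 libraries), and the labels call all 8 libraries ASPN-treated, those at 0 h included. The comparison asked how transcript levels moved with time under ASPN. Cells held for 12 or 24 h without ASPN were not analysed here, so the effects of ASPN and of time in the starvation medium cannot be told apart. The labels call the libraries biological replicates, and by the methods of the study the cells were plated in wells. The p values thus measure the spread between such cultures of 1 cell line.

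Zinc enters the cytosol through ZIP proteins, from outside the cell or from internal stores, and leaves it through the SLC30 (ZnT) proteins. Metallothioneins bind zinc in the cytosol, and their genes are induced by MTF1, a transcription factor that senses zinc through metal response elements. The epithelium of the normal prostate is known for accumulating zinc, a trait that is commonly lost in prostate cancer.

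Library totals ran from 73406825 to 96962135 counts, and mitochondrial genes took 6.20% to 7.32% of them. Levels are given as CPM, the counts of a gene relative to the library total, scaled by the trimmed mean of M values (TMM), and changes as log2 fold changes with standard errors (SE) from edgeR. A gene passed when its p from edgeR's quasi-likelihood test, adjusted over all genes tested by the Benjamini-Hochberg method, did not exceed 0.05. A gene was called when the change was also at least 1.5-fold. The median log2 change of all tested genes was -0.00069 at 12 h and -0.0031 at 24 h. The cells carried the markers of prostate luminal epithelium, with 7 of the 7 examined detected, among them KLK3, KLK2 and HOXB13. Their summed level was 4271 to 4358 CPM at 0 h, 4713 to 4771 CPM at 12 h and 4753 to 4916 CPM at 24 h, and the part of that difference in the results was not tested. Summed markers of basal epithelium reached 0.229 CPM and those of leukocytes 0.220 CPM. Those of fibroblasts and smooth muscle summed to 21.7 to 24.6 CPM, mostly COL1A1, and those of endothelium to 11.2 to 17.3 CPM, mostly VWF, with PECAM1 at 0 to 2 counts per library. In bulk RNA, fewer cells that express a gene and less of its RNA per cell cannot be told apart.

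Because MTF1 is known to act through metal response elements, promoters of the set were searched for the core of that element, TGCACNC or TGCGCNC, on both strands in RefSeq windows reaching from 250 bases before to 50 bases after a transcript start (GRCh38.p14). The 8 members with windows had 14 of them, and 6 windows (42.9%) held a core, against 29.6% of all 35116 windows. By gene, 6 of the 8 members had a core in some window, against 33.4% of 27305 genes. The members had more windows per gene, which by itself raises the share by gene. The sites are shown with 10 bases on each side and the core in capitals, read 5′ to 3′ on the gene's strand.
SLC39A10 (chr2:195657249-195657275, + strand): ggagaggagaTGCACACggcactcgag
SLC39A1 (chr1:153963757-153963783, - strand): cctccacagaTGCGCCCcagggcccca
SLC39A3 (chr19:2740188-2740214, - strand): gcttggtggcTGCGCCCgccgctcagc
SLC39A6 (chr18:36129341-36129367, - strand): cccgcggcgcTGCGCGCggcggtaatt
SLC39A8 (chr4:102345585-102345611, - strand): ccggcggtccTGCGCCCcggcgtggac
SLC39A13 (chr11:47408405-47408431, + strand): caaacggaagTGCGCCCtctacccggg
SLC39A10, SLC39A1 and SLC39A13 had 2 windows each and SLC39A8 had 3, with a core only in the window shown. The core of SLC39A10 is of the TGCACNC form and begins 34 bases after the RefSeq transcript start of its window. The other 5 are of the TGCGCNC form and begin 17 to 236 bases before their starts. Some of these starts lie inside the gene as the file gives it: the core is 81282 bases from the gene's 5′ end in SLC39A10, 85657 in SLC39A8, 4411 in SLC39A1 and 1283 in SLC39A13. Which start the cells used was not measured. The members with a core include genes that were lower, higher and neither in the comparisons below. A match of these letters is a description of the sequence and does not show that a factor binds there.

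SLC39A10 (ENSG00000196950.14, 195575977–195737702 on the plus strand of chromosome 2) encodes a plasma membrane importer closely related to SLC39A6, with which it is known to form a complex. Its level at 0 h was 241 CPM in replicate 1 and 224 CPM in the library without a number. It was 93.0, 93.2 and 101 CPM in the 3 libraries at 12 h, and 66.4, 96.3 and 82.6 CPM in the 3 libraries at 24 h. Every library with 12 or 24 h of ASPN lay far below both libraries at 0 h, and the libraries at 12 and 24 h overlapped. The log2 fold change was -1.28 (SE 0.15) at 12 h, -1.51 (SE 0.15) at 24 h and -0.23 (SE 0.14) from 12 to 24 h. The biological coefficient of variation of SLC39A10 was 11.7%, against 5.59% over all genes, and the 24 h libraries were the most spread. The raw counts, from 16256 to 21214 at 0 h and from 6045 to 9316 in the later libraries, leave little counting error in these values.

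The ratio of SLC39A10 counts to SLC39A6 counts within a library needs no scaling between libraries. It was 0.958 ± 0.017 (SD, n = 2) at 0 h, 0.412 ± 0.033 (SD, n = 3) at 12 h and 0.335 ± 0.060 (SD, n = 3) at 24 h. The lowest ratio at 0 h, 0.946, was above the highest ratio of the later libraries, 0.450. Thus the 2 related genes had nearly equal counts at 0 h and unequal counts afterwards.

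**Figure D1:**
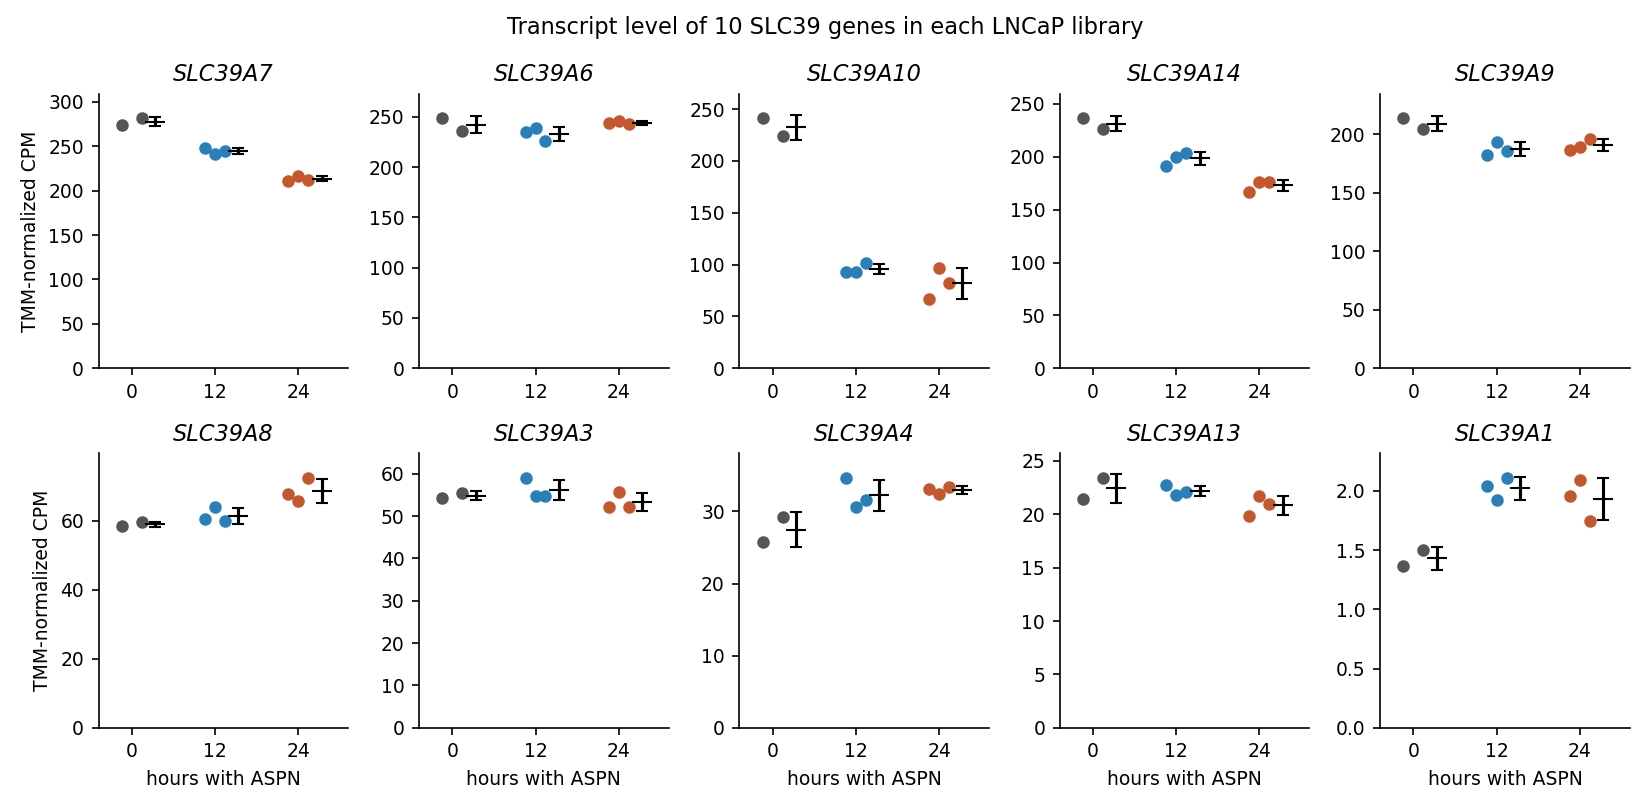
Points give the TMM-normalized CPM of each library (vertical axis, from 0) at 0, 12 and 24 h with ASPN (horizontal axis) for the 10 SLC39 genes, with the mean and SD beside them in black. SLC39A10 drops from 224 to 241 CPM at 0 h to 66.4 to 101 CPM in all later libraries, whereas SLC39A6 keeps overlapping levels between 0 h and each later time.

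SLC39A6 (LIV-1, first known as an estrogen-regulated gene of breast cancer) did not pass the test in any comparison. Its level was 248 and 236 CPM at 0 h, 235, 239 and 226 CPM at 12 h, and 244, 246 and 243 CPM at 24 h. The libraries of each later time overlapped those at 0 h. The log2 fold change was -0.055 (SE 0.044) at 12 h and 0.0092 (SE 0.044) at 24 h. Of its exon bases, 6.16% are shared with a long noncoding gene on the same strand, for which no counts were listed.

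SLC39A7 releases zinc from the endoplasmic reticulum and Golgi into the cytosol. It lies at 33200445–33204439 on the plus strand of chromosome 6. Its level was 274 and 281 CPM at 0 h, 248, 242 and 245 CPM at 12 h, and 211, 217 and 212 CPM at 24 h. No library of one time overlapped another time, and the levels descended from 0 h to 12 h to 24 h. SLC39A7 fell by 0.18 on the log2 scale at 12 h (SE 0.042, adjusted p = 0.0036 by edgeR) and by 0.38 at 24 h (SE 0.042, adjusted p = 5.4e-08). From 12 to 24 h it fell by 0.20 (SE 0.038, adjusted p = 0.0023). RXRB on the opposite strand shares 9.02% of its exon bases, and whether the counting used strand is not stated.

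SLC39A14, which carries zinc, iron and manganese across the plasma membrane, moved by similar amounts. Its level was 236 and 227 CPM at 0 h, 192, 200 and 204 CPM at 12 h, and 167, 176 and 176 CPM at 24 h. Again the 3 times did not overlap and the order was 0 h, 12 h, 24 h from high to low. SLC39A14 fell by 0.22 on the log2 scale at 12 h (SE 0.045, adjusted p = 0.0010 by edgeR) and by 0.42 at 24 h (SE 0.045, adjusted p = 2.9e-08). From 12 to 24 h it fell by 0.20 (SE 0.041, adjusted p = 0.0043), which did not pass without 12 h replicate 3 (adjusted p = 0.054) or without 24 h replicate 1 (adjusted p = 0.073).

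SLC39A9, a transporter of the Golgi and plasma membrane, was lower by a small amount at both times. Its level was 213 and 205 CPM at 0 h, 182, 194 and 186 CPM at 12 h, and 186, 189 and 196 CPM at 24 h. Both libraries at 0 h were above all later ones, which overlapped each other. The log2 fold change was -0.16 at 12 h (SE 0.045, adjusted p = 0.017 by edgeR) and -0.13 at 24 h (SE 0.045, adjusted p = 0.038). The test was passed in 13 of 16 settings at 12 h and in 10 of 16 at 24 h. Leaving out 0 h replicate 1 gave an adjusted p of 0.24 at 12 h and 0.27 at 24 h, and leaving out 12 h replicate 3 gave 0.069 and 0.062. For the comparison of 24 h with 0 h, leaving out 24 h replicate 1, 2 or 3 gave 0.16, 0.13 or 0.0501.

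SLC39A4 and SLC39A8 were the members that passed the test in the upward direction. SLC39A4, the importer of dietary zinc in the intestine whose loss causes acrodermatitis enteropathica, was at 25.7 and 29.1 CPM at 0 h. It was at 34.6, 30.5 and 31.5 CPM at 12 h and at 33.1, 32.4 and 33.4 CPM at 24 h. All later libraries lay above both at 0 h. The log2 fold change was 0.23 at 12 h (SE 0.066, adjusted p = 0.017 by edgeR) and 0.27 at 24 h (SE 0.066, adjusted p = 0.0040). Leaving out 0 h replicate 1, the lower of the libraries at 0 h, gave an adjusted p of 0.43 at 12 h and 0.21 at 24 h. Leaving out 12 h replicate 1 gave 0.063 at 12 h.

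SLC39A8, which carries zinc, manganese and cadmium, was at 58.5 and 59.6 CPM at 0 h, 60.5, 64.1 and 59.9 CPM at 12 h, and 67.7, 65.8 and 72.4 CPM at 24 h. The libraries at 24 h were the highest, and those at 12 h lay just above those at 0 h. The log2 fold change was 0.059 at 12 h (SE 0.053, adjusted p = 0.56 by edgeR) and 0.22 at 24 h (SE 0.053, adjusted p = 0.0039). At 24 h the adjusted p was 0.061 without 0 h replicate 1. From 12 to 24 h the log2 change was 0.16 (SE 0.047, adjusted p = 0.065), and without 12 h replicate 2 the adjusted p was 0.032. Thus SLC39A8 and SLC39A14, both carriers of zinc and manganese, passed the test at 24 h in opposite directions.

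SLC39A1, SLC39A3 and SLC39A13 did not pass in any comparison. SLC39A1, regarded as the main zinc uptake protein of the prostate, was at 1.362 and 1.499 CPM at 0 h, 2.04, 1.92 and 2.11 CPM at 12 h, and 1.96, 2.09 and 1.74 CPM at 24 h. Every later library was above both at 0 h, yet the log2 changes of 0.50 (SE 0.19, adjusted p = 0.084 by edgeR) and 0.44 (SE 0.19, adjusted p = 0.12) did not pass. Its level is uncertain, because a readthrough gene on the same strand, for which no counts were listed, shares 60.8% of its exon bases and CREB3L4 on the opposite strand shares 8.26%. Counting can discard reads that fall on more than 1 gene, and the options used are not stated.

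SLC39A3, a plasma membrane importer related to SLC39A1, ranged from 52.1 to 59.0 CPM over all 8 libraries. Its log2 fold change was 0.035 (SE 0.054) at 12 h and -0.040 (SE 0.054) at 24 h. Of its exon bases, 9.39% are shared with a protein-coding gene on the same strand, for which no counts were listed. SLC39A13, a transporter of the early secretory pathway whose loss causes a connective tissue disorder, ranged from 19.8 to 23.4 CPM. Its log2 fold change was -0.014 (SE 0.068) at 12 h and -0.11 (SE 0.068) at 24 h. For both genes the libraries at each later time overlapped those at 0 h.

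**Figure D2:**
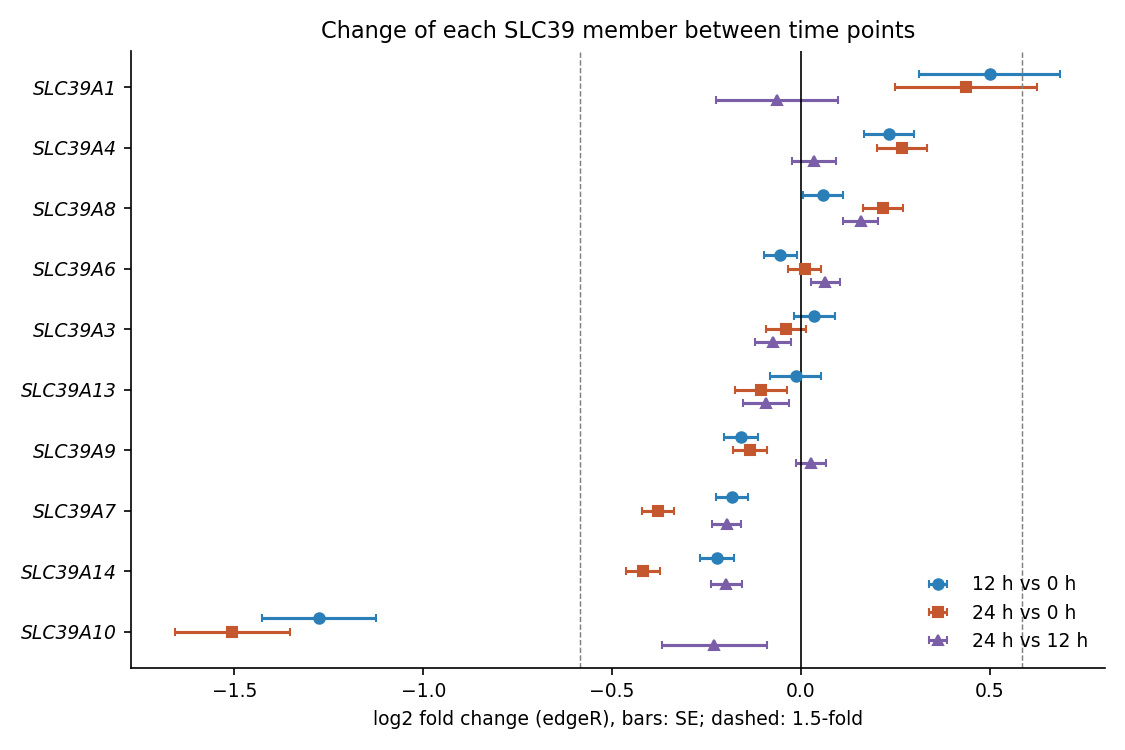
Points give the log2 fold change of each SLC39 gene (horizontal axis) for 12 h against 0 h, 24 h against 0 h and 24 h against 12 h, with the SE as bars and dashed lines at 1.5-fold. SLC39A10 is the only member past 1.5-fold, at -1.28 and -1.51 against 0 h, and SLC39A7 and SLC39A14 show falls of similar size in each comparison.

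Between 12 and 0 h, 5 of the 10 members passed the test, 1 higher and 4 lower, where 11.6% of all tested genes passed (4.85% higher and 6.75% lower). The libraries did not overlap for 7 members, 3 higher and 4 lower, against 36.9% of all genes (17.3% and 19.6%). Between 24 and 0 h, 6 members passed, 2 higher and 4 lower, against 16.3% (7.82% and 8.49%), and 7 did not overlap, 3 higher and 4 lower, against 43.2% (21.5% and 21.7%). Only SLC39A10 met the rule for a call in either comparison, and it was lower in both. Because its change at 24 h chose it, this is a description and not a test. Of all genes, 1.05% were called at 12 h (0.489% higher and 0.565% lower) and 2.45% at 24 h (1.1% higher and 1.35% lower). Since the set was chosen with results of these comparisons known, nothing is read from these counts or from passes of SLC39A10. Both comparisons share the libraries at 0 h. Without 0 h replicate 1, 2 members (SLC39A7 and SLC39A14) passed at 12 h, with none called, and 3 (SLC39A7, SLC39A10 and SLC39A14) passed at 24 h.

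Between 24 and 12 h, 2 members passed, both lower (SLC39A7 and SLC39A14), where 2.72% of all genes passed (1.12% higher and 1.61% lower). Without 12 h replicate 3 or without 24 h replicate 1, SLC39A7 alone passed. SLC39A8 passed as well without 12 h replicate 2, and SLC39A10 without 24 h replicate 2. No member was called, by this test or by DESeq2, against 0.18% of genes (0.0759% higher and 0.104% lower). The libraries did not overlap for 5 members, 2 higher (SLC39A6 and SLC39A8) and 3 lower (SLC39A7, SLC39A13 and SLC39A14), against 19.6% of genes (10.3% and 9.33%). The median log2 change of the 10 members was -0.034 at 12 h, -0.073 at 24 h and -0.069 between the later times.

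Levels of different genes were compared after division by the length of their merged exons, as CPM per kilobase. The places of close neighbours depend on this choice of length. Merged exons span 6917 bases in SLC39A10 and 4428 in SLC39A3, and the longest transcripts 5432 and 2940. Divided by the longest transcript, the mean of SLC39A10 at 12 h lies below that of SLC39A3. With that length, SLC39A9 lies below SLC39A14 at 24 h (longest transcripts of 5399 and 4663 bases). Likewise SLC39A6 then lies below SLC39A7 at 12 h (3566 and 3189 bases), and SLC39A10 and SLC39A14 no longer overlap at 0 h. The values that follow use merged exons. At 0 h, SLC39A7 (69.4) and SLC39A6 (65.8) led. They were followed by SLC39A10 (33.6) and SLC39A14 (33.5), whose libraries overlapped, and by SLC39A9 (29.3) and SLC39A3 (12.4). SLC39A8 (6.96), SLC39A4 (5.51), SLC39A13 (4.90) and SLC39A1 (0.42) came last, and no other neighbours overlapped.

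At 12 h, SLC39A6 (63.4) and SLC39A7 (61.2) overlapped at the top, and SLC39A10 (13.9) stood in place 5, just above SLC39A3 (12.7). At 24 h, SLC39A6 (66.2) was above SLC39A7 (53.3) in every library, and SLC39A9 (26.7) was above SLC39A14 (25.1). SLC39A10 (11.8) was then in place 6, overlapping SLC39A3 (12.0), and the 4 lowest genes kept their order throughout. On this scale, the order of the top pair and of the middle members thus changed with time.

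Summed over the 10 members, the level was 262 ± 3.5 CPM per kilobase (SD, n = 2) at 0 h, 225 ± 1.3 (SD, n = 3) at 12 h and 215 ± 4.5 (SD, n = 3) at 24 h. Without SLC39A10 the sums were 228, 211 and 203. SLC39A10 made up 12.8% ± 0.50 of the sum at 0 h, 6.16% ± 0.34 at 12 h and 5.49% ± 0.89 at 24 h. The share in each later library, at most 6.55%, was below the lowest share at 0 h, 12.5%. Sum and share rest on merged exon lengths, hold SLC39A1, whose level is uncertain, and leave out SLC39A11 (5.01 CPM per kilobase at 0 h).

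**Figure D3:**
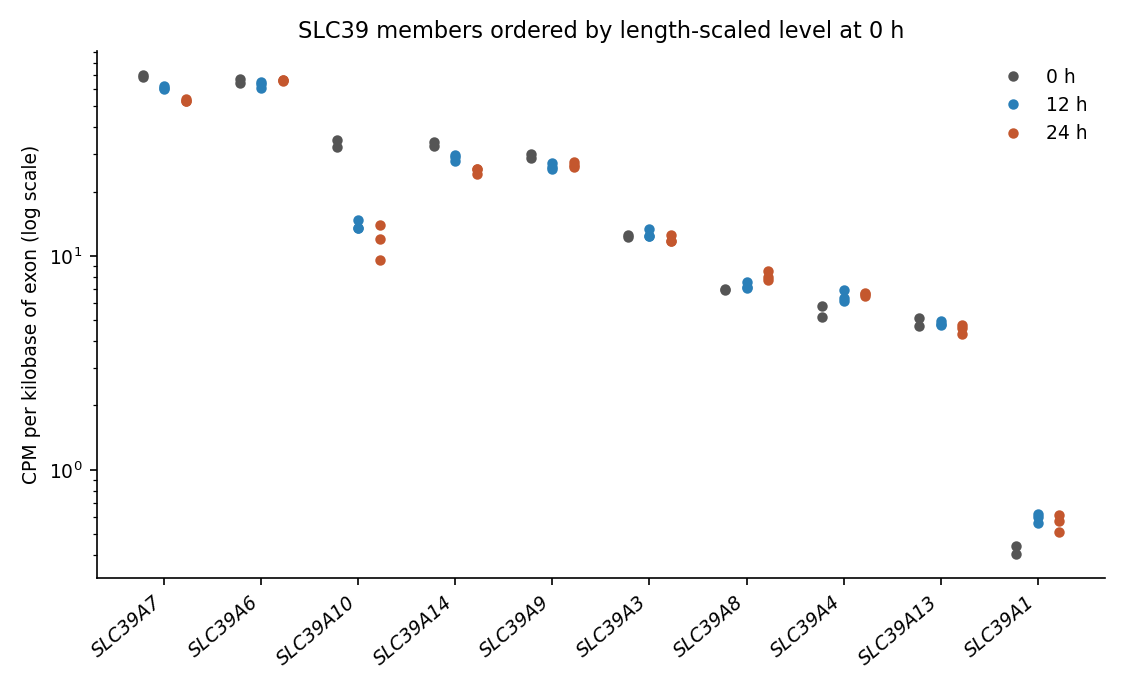
Points give the level of each library in CPM per kilobase of exon (vertical axis, log scale) for the 10 SLC39 genes, ordered from left to right by their mean at 0 h. SLC39A10 lies beside SLC39A14 at 0 h (33.6 and 33.5) and beside SLC39A3 at 24 h (11.8 and 12.0).

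Among 11584 protein-coding genes, those whose centred log2 CPM over the 8 libraries came closest to SLC39A10 were ADA2, TGM1, KLHDC7B, CEMIP and FGF21, with root mean square differences of 0.15 to 0.24 log2 units. ADA2, a secreted adenosine deaminase, was nearest, at a mean of 3.37 CPM at 0 h, 1.57 CPM at 12 h and 1.23 CPM at 24 h. The log2 changes at 24 h were -1.40 for TGM1, a transglutaminase of the cell envelope, and -1.28 for FGF21, a secreted growth factor. They were -1.24 for CEMIP, which takes part in hyaluronan breakdown, and -1.39 for KLHDC7B. All 5 were far less abundant than SLC39A10, at 3.37 to 6.50 CPM at 0 h. Among the members, the nearest were SLC39A14 (0.48), SLC39A7 (0.50) and SLC39A9 (0.57).

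Of the 10 zinc exporters of the SLC30 family, 8 were tested. At 12 h 1 rose and 3 fell, where 4.85% of all tested genes were higher and 6.75% lower. At 24 h 3 rose and 3 fell, where 7.82% were higher and 8.49% lower. Between 12 and 24 h 2 rose, where 1.12% were higher. The list was drawn up with earlier results of these data known. SLC30A1, the exporter of the plasma membrane and a known target of MTF1, was at 11.9 and 10.5 CPM at 0 h, 14.8, 15.5 and 14.8 CPM at 12 h, and 22.2, 18.1 and 20.1 CPM at 24 h. The 3 times did not overlap and the order was the reverse of that of SLC39A7 and SLC39A14. The log2 fold change was 0.43 at 12 h (SE 0.085, adjusted p = 0.00084 by edgeR), 0.85 at 24 h (SE 0.085, adjusted p = 7.1e-09) and 0.42 between them (SE 0.073, adjusted p = 0.00068). SLC30A1 passed in all 16 settings at 12 h, in all 16 at 24 h and in all 17 between the later times.

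SLC30A4, an exporter of endosomes and secretory vesicles, was at 317 and 298 CPM at 0 h, 292, 316 and 312 CPM at 12 h, and 361, 366 and 369 CPM at 24 h. It was higher in the 24 h libraries than in all others, by 0.25 on the log2 scale against 0 h (SE 0.045, adjusted p = 0.00012 by edgeR) and by 0.25 against 12 h (SE 0.040, adjusted p = 0.00027). SLC30A5 and SLC30A7, which load zinc into the early secretory pathway, fell at 24 h by 0.30 (SE 0.052, adjusted p = 8.4e-05) and 0.38 (SE 0.064, adjusted p = 4.2e-05). They also fell at 12 h, by 0.24 (adjusted p = 0.0016) and 0.30 (adjusted p = 0.0014), although without 0 h replicate 1 neither passed at 12 h, with adjusted p of 0.15 for SLC30A5 and 0.093 for SLC30A7.

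SLC30A10, best known as a manganese exporter, fell from 3.63 CPM at 0 h to 2.43 CPM at 12 h (adjusted p = 0.019 by edgeR) and 2.59 CPM at 24 h (adjusted p = 0.039), and passed in 12 and 10 of 16 settings. Leaving out either 0 h library, 12 h replicate 1 or 3 (for 12 h), or any 24 h library (for 24 h) lost the pass. By DESeq2, SLC30A10 did not pass at 24 h either. Over the settings its log2 change was -0.75 to -0.42 at 12 h and -0.54 to -0.42 at 24 h. SLC30A3 had 4 to 45 counts per library and passed at 24 h, with a log2 change of 1.55 (SE 0.50, adjusted p = 0.031), in 11 of 14 settings. Its size rested on the 0 h libraries, which had 20 and 4 counts: it was 2.93 without 0 h replicate 1 and 0.92 without the unnumbered 0 h library (adjusted p = 0.30). It also did not pass without 24 h replicate 2 (adjusted p = 0.084) or 3 (adjusted p = 0.072). SLC30A6 and SLC30A9 did not pass.

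Of 12 genes on the list of metallothioneins and MTF1, 7 had counts and 6 were tested, of which 2 rose at 12 h and 2 at 24 h (4.85% and 7.82% of all genes were higher) and none between the later times. MT1G was at 19.2 and 17.6 CPM at 0 h, 31.6, 30.2 and 28.7 CPM at 12 h, and 34.9, 29.2 and 28.5 CPM at 24 h. All later libraries lay above both at 0 h, and the later times overlapped. MT1G rose by 0.71 on the log2 scale at 12 h (SE 0.076, adjusted p = 1.3e-07 by edgeR) and by 0.75 at 24 h (SE 0.076, adjusted p = 1.0e-08), in all 16 settings. MT1X rose by 0.57 at 24 h (SE 0.13, adjusted p = 0.0016) and by 0.38 at 12 h (adjusted p = 0.0495), the latter in 9 of 16 settings. MT1X did not pass at 12 h by DESeq2 or in the fit without the robust option. Leaving out either 0 h library, 12 h replicate 2 or 3, or 24 h replicate 3 also lost that pass. The log2 change of MT1X at 12 h was 0.30 to 0.46 over the settings.

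MT2A was at 25.4 and 25.3 CPM at 0 h, 48.1, 39.1 and 43.97 CPM at 12 h, and 49.7, 31.5 and 40.5 CPM at 24 h. Its later libraries were all above those at 0 h but widely spread, and the log2 changes of 0.79 (SE 0.21, adjusted p = 0.082 by edgeR) and 0.68 (SE 0.21, adjusted p = 0.099) did not pass. Other settings differed: MT2A passed in 5 of 16 settings at 12 h and 4 of 16 at 24 h. By DESeq2 the adjusted p was 0.0016 for 12 h and 0.0064 for 24 h. Leaving out 24 h replicate 1 gave an adjusted p of 3.9e-06 and 0.00094, and leaving out 24 h replicate 2 gave 3.8e-07 and 1.5e-07. MTF1 was at a mean of 41.9, 41.1 and 40.5 CPM and did not pass. Metallothionein genes are close in sequence, so the counting may have divided or dropped reads among them.

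**Figure D4:**
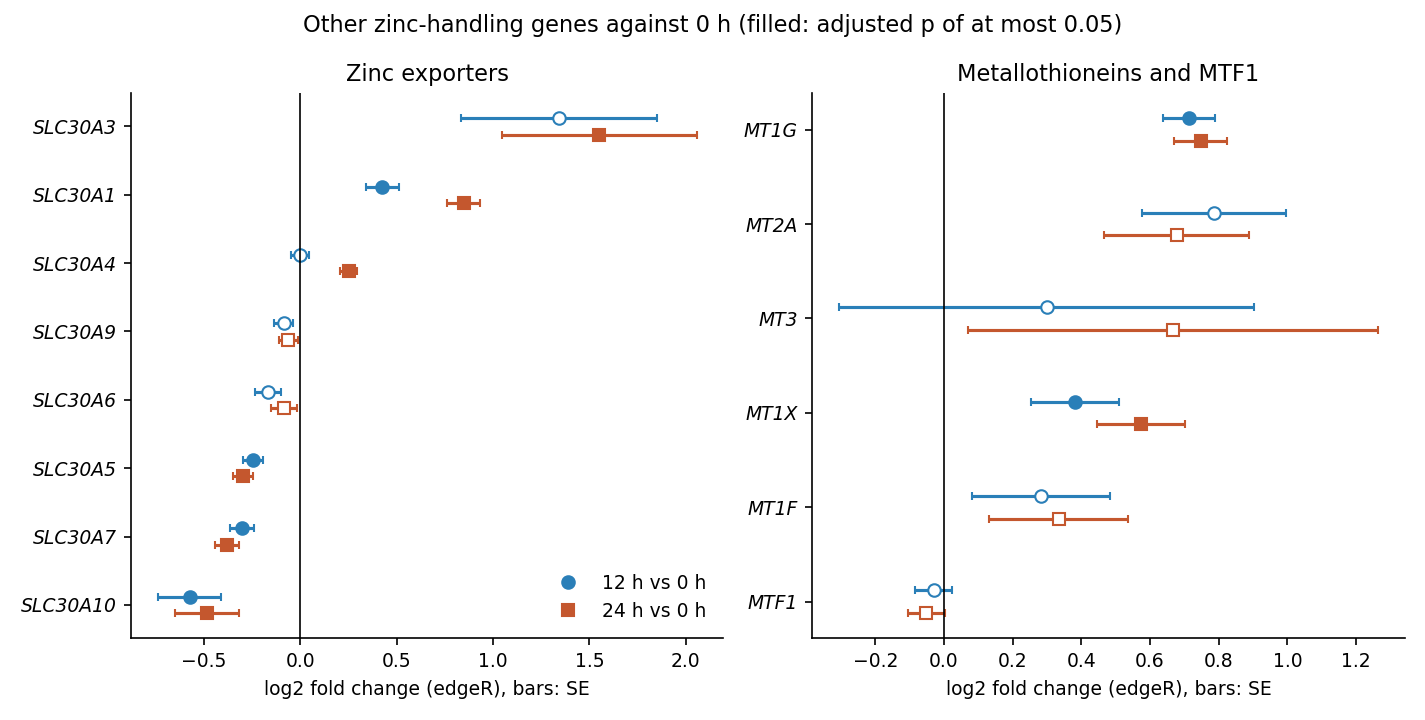
Points give the log2 fold change against 0 h (horizontal axis) at 12 h (circles) and 24 h (squares) for the tested zinc exporters (left) and for metallothioneins and MTF1 (right), with the SE as bars and filled symbols where the adjusted p was at most 0.05. SLC30A1 is at 0.43 and 0.85 and MT1G at 0.71 and 0.75, whereas SLC30A5, SLC30A7 and SLC30A10 are below 0 at both times.

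Because SLC39A8 and SLC39A14 also carry iron or manganese, 7 genes of iron and manganese handling were examined, and all 7 were tested. At 12 h FTH1, the ferritin heavy chain, fell by 0.15 on the log2 scale (SE 0.047, adjusted p = 0.033 by edgeR), in 9 of 16 settings, and from 12 to 24 h it rose by 0.16 (SE 0.043, adjusted p = 0.029), in 13 of 17. At 24 h TFRC, the transferrin receptor, rose by 0.16 (SE 0.045, adjusted p = 0.012) in 14 of 16 settings. SLC11A2, an importer of iron and manganese, fell by 0.14 (SE 0.048, adjusted p = 0.039) in 9 of 16. The pass of FTH1 was lost at 12 h without 0 h replicate 1, 12 h replicate 1 or any 24 h library. It was also lost with upper-quartile normalization and in the fit of the compared times alone. Over the settings the log2 change of FTH1 at 12 h was -0.20 to -0.096. From 12 to 24 h its pass was lost without 12 h replicate 1 or any 24 h library (adjusted p up to 0.26 by edgeR). The pass of TFRC was lost without the unnumbered 0 h library or 24 h replicate 3. That of SLC11A2 was lost without either 0 h library, 12 h replicate 3, any 24 h library or the filter on low counts. Over the settings the log2 changes at 24 h were 0.14 to 0.18 for TFRC and -0.16 to -0.13 for SLC11A2. SLC40A1, FTL, ACO1 and IREB2 did not pass in any comparison. SLC39A11, the abundant family gene outside the set, had mean levels of 27.9, 26.5 and 27.6 CPM and did not pass either.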

How the data were processed

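The authors deposited raw counts of reads for each gene, with no normalization. Per the methods of the study, the authors removed adapters with Cutadapt, aligned paired reads to GRCh38 with STAR, counted them per GENCODE gene with featureCounts, and left out 1 library at 0 h for quality. Strand, pairing and multi-mapping options are not stated. The second column at 0 h bears a number that no label at 0 h has and was used as a library without a number. Members and lists were chosen with earlier results of these data known.

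All 21071 genes kept by filterByExpr were fitted over the 8 libraries in edgeR 4.0.16 (R 4.3.3; TMM, 1 coefficient per time, robust glmQLFit and glmQLFTest), tested on simulated data, and p values were adjusted over all of them. Each SE is the absolute log2 fold change divided by the square root of F. No column of values was left unused. Pairs of libraries within a group differed by more than sampling noise, with a chi-square per degree of freedom of 5.10 to 13.8, so each was counted once. A count of 0 allows up to 0.0309 to 0.0409 CPM (3 counts), which covers counting error only. Exon lengths came from GENCODE on GRCh38. Of the 36474 genes of the file, 30996 had the same versioned identifier there, and all 30996 had equal coordinates. Among the 10 members, 9 had the same versioned identifier. No exon of SLC39A10, SLC39A13 or SLC39A14 overlapped another gene. A stretch of 500 bases of SLC39A4 was 90.6% identical to TMEM192.

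Alternatives were RLE and upper-quartile normalization, no filter or a minimum mean of 100 normalized counts, a fit without the robust option, DESeq2 1.42.0, fits of the compared times alone, the replicate number as a block, and leaving out each library. Genes outside the set were named where they passed the test against 0 h, or as a check, or by closeness to SLC39A10 (5 genes and 3 members). Some marker genes of the luminal list are not reported here, and its sums leave them out.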

Additional observations from a re-analysis of the deposited data

How the results depend on the processing

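Normalization, filters, DESeq2 and fits of the compared times alone kept every count of members within 1.5 times its value. Leaving out each library in turn gave 2 to 5 members past the test between 12 and 0 h, 0 to 1 called, 3 to 6 past it between 24 and 0 h, and 1 to 3 between 24 and 12 h. The low values of the comparisons with 0 h came without 0 h replicate 1, whose absence left 1 library at 0 h, assumed to vary like the other groups. SLC39A10 kept log2 changes of -1.32 to -1.22 at 12 h and -1.64 to -1.38 at 24 h over all 16 settings. Of the values of single members, 436 kept direction and side of the threshold, 16 no longer passed (SLC39A10 at 12 h without 0 h replicate 1 among them), 4 passed newly between the later times (SLC39A8 in 3 settings, and SLC39A10 without 24 h replicate 2) and 4 changed sign. The sign changes were in changes that did not pass, where leaving out each library gave a range: -0.076 to 0.059 for SLC39A13 at 12 h and -0.021 to 0.041 for SLC39A6 at 24 h (sign changed without the unnumbered 0 h library), -0.13 to 0.0018 for SLC39A1 from 12 to 24 h (without 24 h replicate 3), and -0.0038 to 0.081 for SLC39A4 from 12 to 24 h (without 12 h replicate 2). The causes were not tested, and nothing is read from the passes of SLC39A10, which was chosen by its change. Libraries with equal replicate numbers at 12 and 24 h had low correlations (0.11, 0.037 and 0.025), against -0.090 to 0.054 for unequal numbers. These values do not settle whether equal numbers mark pairs. With the number as a block, 3 members passed between these times in place of 2. Over all genes, 865 passed with the block, 663 without it and 574 over all 8 libraries. No block was fitted with the 0 h libraries, because the number of the second one matches no label at 0 h. Over all genes, leaving out 0 h replicate 1 gave 624 past the test in place of 2443 at 12 h and 1597 in place of 3437 at 24 h (called: 78 in place of 222 and 265 in place of 516). Between the later times, leaving out 12 h replicate 3 or a 24 h library gave 222 to 273 in place of 574. A minimum mean of 100 normalized counts called 140 and 322 genes against 0 h, from fewer genes tested.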
